A study of Mus musculus with 28 samples.

Results

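Glucose uptake and glycolysis were followed through 10 genes on 28 mouse expression arrays: the glucose transporter gene Slc2a1, the hexokinase genes Hk1 and Hk2, the phosphofructokinase genes Pfkp and Pfkm, Pfkfb3, Pgk1, Eno3, Pkm and Ldha. They were taken by gene symbol from the probe annotation, each read from the probe set whose mean over the arrays was highest, and they are 10 of 19938 named genes. On each of the 28 arrays all 10 were brighter than the median probe set, and all were among the 12211 genes tested. The samples were mouse embryonic fibroblasts (MEFs), a connective tissue cell culture, driven towards induced cardiomyocytes by lentiviral transcription factors. In the combination names G is GATA4, M is MEF2C, T is TBX5, N is NKX2.5, H is Hand2 and D is MYOCD, the muscle coactivator myocardin. MEFs without factors (0F) were measured on 3 arrays. GMT had 5 arrays and NGMT 6, the Hand2 combinations HGMT and HNGMT had 3 each, and the MYOCD combinations DMT and DMNT had 4 each. All 6 combinations also received the rtTA activator and a reporter whose troponin T promoter drives GCaMP5 and zeocin resistance, were kept in 2 μg/mL doxycycline, and were selected with 300 μg/mL zeocin for the last 7 days before collection on day 21. The 0F cells were cultured without transduction and collected on day 21. A comparison with 0F therefore spans transduction and selection as well as the factors, and these cannot be told apart. The labels describe the replicates as independent biological ones but not what separates them, so p-values measure the spread between these samples.

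Glycolysis splits glucose into pyruvate in the cytosol and yields ATP without oxygen. Glucose enters through facilitative transporters, is trapped by hexokinase, is committed at the phosphofructokinase step, and leaves as pyruvate, which lactate dehydrogenase can turn into lactate. Fetal heart muscle relies on this route more than adult heart muscle, which burns mainly fatty acids. Several steps have muscle isoforms: Hk2, Pfkm and Eno3 encode the forms of hexokinase, phosphofructokinase and enolase that are abundant in striated muscle.

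The arrays fell into 3 sets of separately scaled values, with array medians of log2 signal from 6.68 to 6.75 in set 1 (0F, GMT replicates 1 and 2, NGMT replicates 1 to 3), 6.86 to 6.95 in set 2 (GMT replicates 3 to 5, NGMT replicates 4 to 6, HGMT, HNGMT, DMT replicates 1 to 3) and 7.64 to 7.65 in set 3 (DMT replicate 4 and DMNT). The 5 arrays of set 3 shared more near-equal values than those of the other sets, and GMT replicate 5 and HNGMT replicate 1 stood apart from their groups in several of the 10 genes. Differences below are log2 differences ± standard error from a limma fit of all 28 arrays with terms for the group and for the set, and a gene is called at an adjusted p under 0.05. A level is log2 signal as deposited, and levels of different genes are not compared. In the cells with factors 13 of 17 tested cardiomyocyte markers were higher than in 0F in GMT. However, Myh6, Myh7, Myl2, Myl3 and Pln lay at or below the array median on all GMT arrays of both sets. In 0F, whose fibroblast markers were read at a mean level of 11.48 to 11.50, the 12 adipocyte markers had a mean level of 11.63 to 11.71, against 6.96 to 7.05 in GMT of set 1.

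Both combinations that share set 1 with 0F had higher signal for the transporter gene Slc2a1, for the muscle isoforms Hk2 and Eno3 and for Pkm, and lower signal for Pfkfb3. In GMT against 0F (5 and 3 arrays) 6 of the 10 genes were higher and 1 was lower, where 60.1% of all 12211 tested genes were called, so the number of calls was close to the background. In NGMT against 0F (6 and 3 arrays) 7 were higher and 1 lower, with 60.8% of all genes called. The median difference of the 10 genes was 0.38 in GMT and 0.39 in NGMT, beside 0.05 and 0.04 over all genes tested.

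Slc2a1 encodes GLUT1, the transporter of basal glucose uptake in many dividing and embryonic cells. In set 1 its level was 9.99, 9.70 and 9.90 in 0F, 11.07 and 11.10 in GMT, and 11.21, 11.36 and 11.37 in NGMT. No array with factors came near those without. The fitted difference from 0F was 1.32 ± 0.09 in GMT, a 2.49-fold higher signal (adjusted p = 3.53e-12), and 1.38 ± 0.08 in NGMT.

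Hexokinase traps glucose as glucose 6-phosphate. Hk2, the inducible muscle form, was read at 7.95, 8.04 and 8.02 in 0F, 9.67 and 9.90 in GMT, and 9.16, 9.17 and 9.38 in NGMT of set 1. The 3 groups did not overlap, with NGMT between the other two. The difference from 0F was 1.74 ± 0.11 in GMT (3.34-fold; adjusted p = 1.79e-12) and 1.27 ± 0.11 in NGMT.

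Hk1, the housekeeping form, gave opposite answers from its 2 probe sets. The probe set of highest mean, which the selection rule takes, was not called in GMT (-0.09 ± 0.04) or NGMT (-0.06 ± 0.04), though without NGMT replicate 4 it was called lower in GMT (-0.11, adjusted p = 0.0178). Its annotation lists 1 accession and no RefSeq transcript, and that accession also stands on 16 probe sets assigned to several genes, all 16 of which name the ribosomal protein gene Rpl17 as well. The other Hk1 probe set lists 2 RefSeq transcripts. It read 9.07, 9.01 and 9.12 in 0F, 9.77 and 9.91 in GMT, and 9.69, 9.68 and 9.81 in NGMT of set 1, without overlap between 0F and the combinations. From that probe set Hk1 was higher by 0.76 ± 0.08 in GMT and 0.67 ± 0.07 in NGMT (adjusted p = 4.79e-09 and 1.67e-08), and the count of genes called higher became 7 in GMT and 8 in NGMT. Reading Hk1 from it was chosen after seeing the data.

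The phosphofructokinase step, where flux is committed, was split. Pfkp, the platelet-type subunit, was higher in GMT (0.40 ± 0.13) and NGMT (0.37 ± 0.12), though a direct difference (all arrays quantile-normalized together, with no term for the set) gave 0.03 and 0.05 and no call. Inside set 1 alone limma called Pfkp higher in GMT (0.36, adjusted p = 0.000467) and in NGMT (0.40, adjusted p = 0.000113). Pfkm, the muscle subunit, was called in NGMT only (0.16 ± 0.05, adjusted p = 0.0122), and not without 0F replicate 2 (adjusted p = 0.0586) or NGMT replicate 2 (adjusted p = 0.0517). Its difference in GMT was 0.11 ± 0.06, and the difference between NGMT and GMT was itself not called (0.05 ± 0.04). As a direct difference Pfkm was -0.08 in NGMT. Inside set 1 alone limma called it higher in NGMT (0.17, adjusted p = 0.0122) and did not call it in GMT (0.09).

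Pfkfb3 makes fructose 2,6-bisphosphate, the strongest activator of phosphofructokinase. In set 1 it was read at 9.31, 9.23 and 9.33 in 0F, 7.89 and 7.98 in GMT, and 8.31, 8.41 and 8.19 in NGMT. All 0F arrays lay above all arrays with factors. It fell by 1.21 ± 0.15 in GMT, a 2.31-fold lower signal (adjusted p = 2.23e-07), and by 1.08 ± 0.14 in NGMT.

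Among the enzymes of the later steps, Eno3, beta-enolase of muscle, had the largest difference of the 10 genes in GMT and in NGMT. It was read at 7.61, 7.47 and 7.66 in 0F, 9.89 and 10.17 in GMT, and 9.85, 9.86 and 9.88 in NGMT of set 1. No array with factors lay near an array without. The fitted difference was 2.47 ± 0.06 in GMT, a 5.52-fold higher signal (adjusted p = 7.34e-21), and 2.27 ± 0.06 in NGMT. Pkm, pyruvate kinase of muscle and most other tissues, was read at 10.63, 10.60 and 10.77 in 0F against 11.34 and 11.35 in GMT and 11.44, 11.48 and 11.46 in NGMT, a difference of 0.74 ± 0.05 in GMT. Pgk1, which makes the first ATP of the pathway, was higher by 0.35 ± 0.08 in GMT and 0.40 ± 0.08 in NGMT. Pgk1 has 3 probe sets of nearly equal mean (11.92 to 11.93), so reads of near-identical copies cannot be told apart there.

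Ldha, lactate dehydrogenase A, differed little in level. It was read at 12.53, 12.52 and 12.57 in 0F and at 12.57 and 12.58 in GMT of set 1. Its difference was 0.08 ± 0.05 in GMT (95% interval -0.02 to 0.19) and 0.11 ± 0.05 in NGMT, not called in either (adjusted p = 0.18 and 0.0567). In NGMT the call returned inside set 1 alone (0.13, adjusted p = 0.00251) and without GMT replicate 5 (0.12, adjusted p = 0.00775). It also returned without GMT replicate 1 (adjusted p = 0.0464), NGMT replicate 6 (adjusted p = 0.0472), HNGMT replicate 1 (adjusted p = 0.016) or HNGMT replicate 2 (adjusted p = 0.0497).

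**Figure D1:**
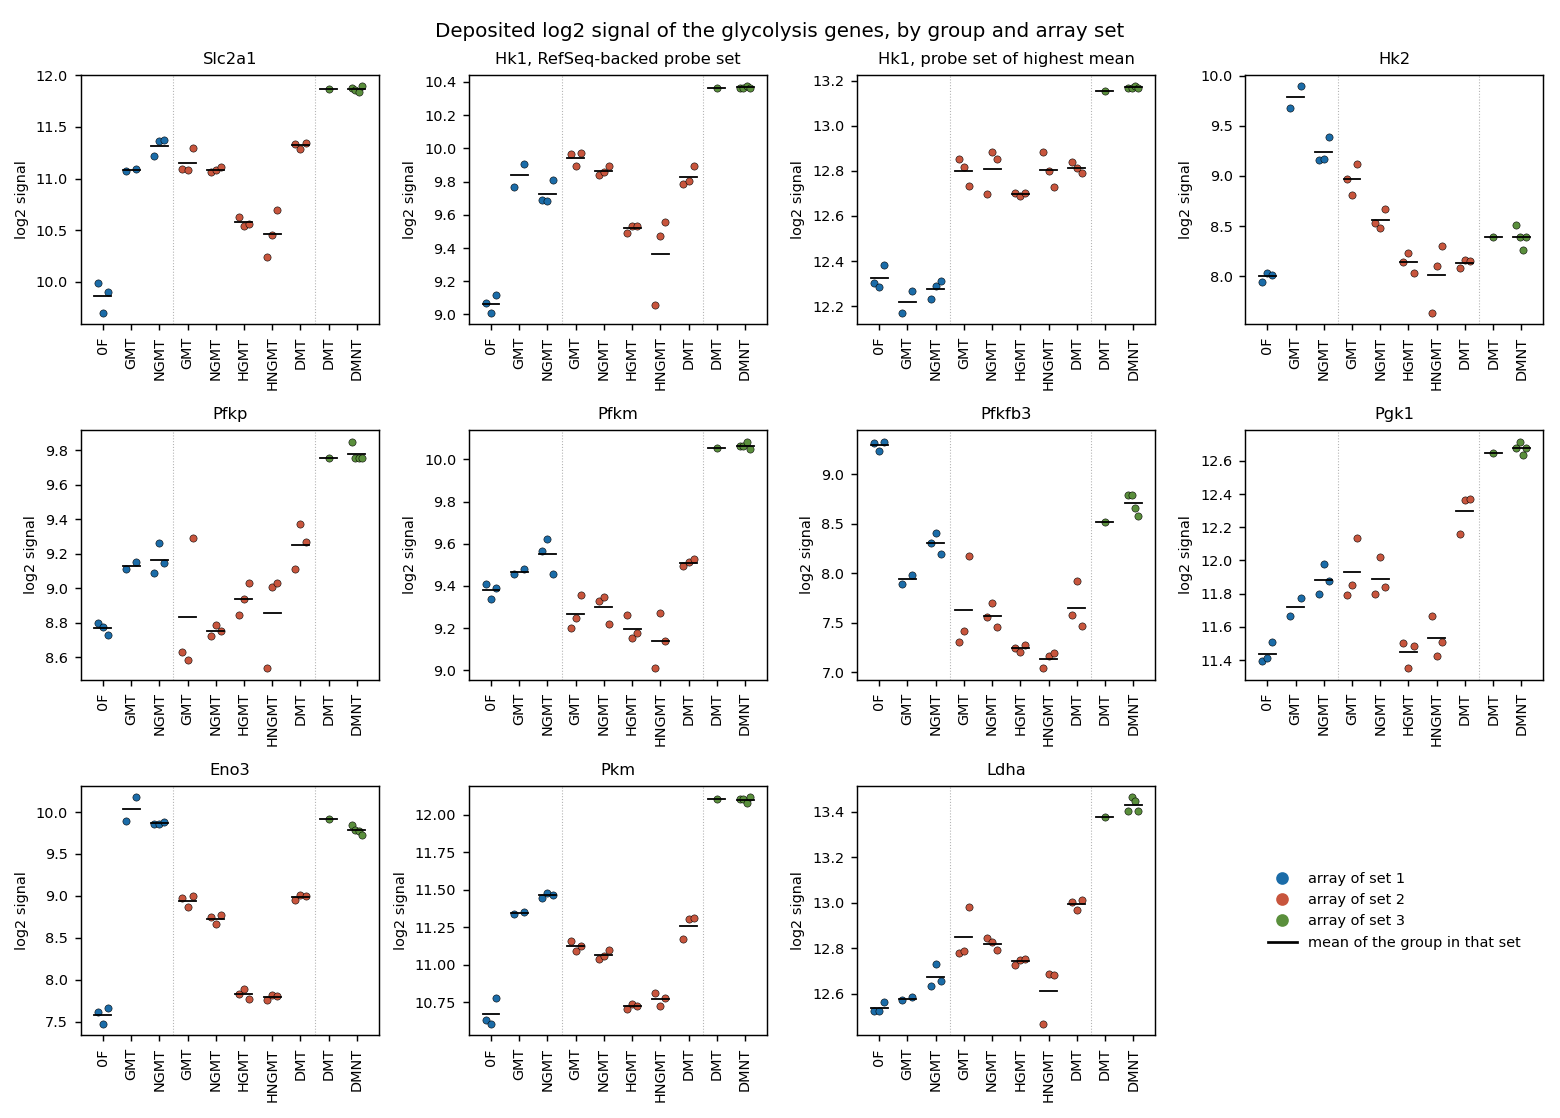
Each point is the deposited log2 signal (y axis) of a gene on 1 array, grouped by combination and array set on the x axis, with bars at the mean of a group in its set. In set 1 Eno3 lies at 7.47 to 7.66 in 0F and at 9.85 or above with factors, and in set 2 HGMT and HNGMT lie at 7.89 or below, while the 2 Hk1 probe sets differ in pattern.

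**Figure D2:**
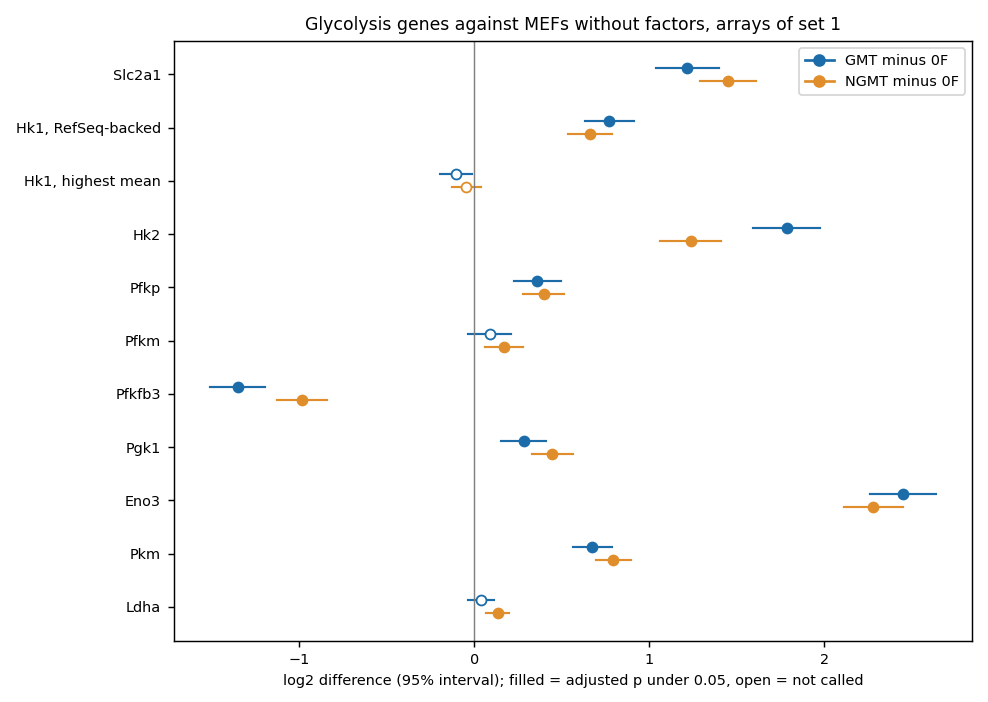
Log2 differences from 0F with 95% intervals (x axis) for each gene (y axis), fitted on the 8 arrays of set 1 alone (0F 3, GMT 2, NGMT 3), with filled points where the limma adjusted p was under 0.05. Eno3 (2.45 in GMT, 2.28 in NGMT), Hk2 (1.79 and 1.24) and Slc2a1 (1.22 and 1.45) lie to the right and Pfkfb3 (-1.35 and -0.98) to the left of 0.

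Inside set 1 alone, with 2 GMT and 3 NGMT arrays, 6 genes were higher and 1 lower in GMT (60.4% of all genes called), and 8 were higher and 1 lower in NGMT (61.9%). Adipocyte markers moved with these results: 12 of 12 tested were lower in GMT than in 0F, with a median of -4.65, and 7 of the 12, Adipoq and Retn among them, lay at or below the array median on all GMT arrays of set 1. Macrophage markers were also lower, 9 of 10 tested, with a mean level of 7.67 to 8.18 in 0F and 6.09 to 6.15 in GMT of set 1. Fibroblast markers were lower in 10 and higher in 3 of 13 tested, with a median of -0.45 and a mean level of 10.76 to 10.90 in GMT of set 1. Epithelial and mesothelial markers were higher in 5 of 6 tested in GMT (median 2.71) and in NGMT (median 3.16), with a mean level of 6.19 to 6.30 in 0F and 7.69 to 7.77 in GMT of set 1, while Cdh1 and Epcam lay at or below the array median in both groups. The part of these cell types in the glycolysis results was not tested. In bulk RNA, fewer cells of a type and less RNA per cell cannot be told apart.

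The other glycolysis genes moved in both directions. Of 22 further genes of transport, glycolysis and lactate handling that were tested, 11 were higher and 4 lower in GMT against 0F, with a median of 0.20 beside 0.05 over all genes. As a direct difference 6 were higher and 7 lower, with a median of 0.03, so the balance of the list depended on how the sets were joined. Inside set 1 alone, where no sets are joined, 10 were higher and 6 lower, with a median of 0.15. Slc2a4, the insulin-responsive transporter of fat and muscle, fell by 3.02 ± 0.09. On all GMT arrays of sets 1 and 2 it lay at or below the array median, so the size of its fall is not exact. Slc2a3, a high-affinity glucose transporter, was higher by 1.56 ± 0.16, and its 0F arrays lay at or below the array median, so the size is not exact. As a direct difference Slc2a3 was 0.73 and not called (adjusted p = 0.0867). Pgam2, the muscle phosphoglycerate mutase next to Eno3 in the pathway, was higher by 1.84 ± 0.10, also from a 0F level at or below the array median. Slc16a1, the monocarboxylate transporter that carries lactate, was higher by 1.74 ± 0.07.

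Entry of pyruvate into mitochondria gave mostly lower signal. Of 13 tested genes 10 were lower and 3 higher in GMT, with a median of -0.65. Pdk4, a kinase that switches off pyruvate dehydrogenase, rose by 2.81 ± 0.09, while Pcx, pyruvate carboxylase, fell by 2.12 ± 0.07. Of 15 glycogen genes 9 were lower and 4 higher, with the phosphorylases Pygl (-1.77 ± 0.10) and Pygb (-1.10 ± 0.06) and the branching enzyme Gbe1 (-1.22 ± 0.09) lower. Hypoxia-response genes, a list that shares Slc2a3 with the glycolysis list, numbered 6 higher and 8 lower of 22, and 3 higher and 11 lower as a direct difference, with the prolyl hydroxylase Egln3 higher (1.68 ± 0.32; 0.07 and not called as a direct difference) and Ndrg1 lower (-1.21 ± 0.07). These lists were chosen with earlier results of these arrays known, and their counts stand beside the 35.9% of all genes called higher and 24.1% called lower.

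**Figure D3:**
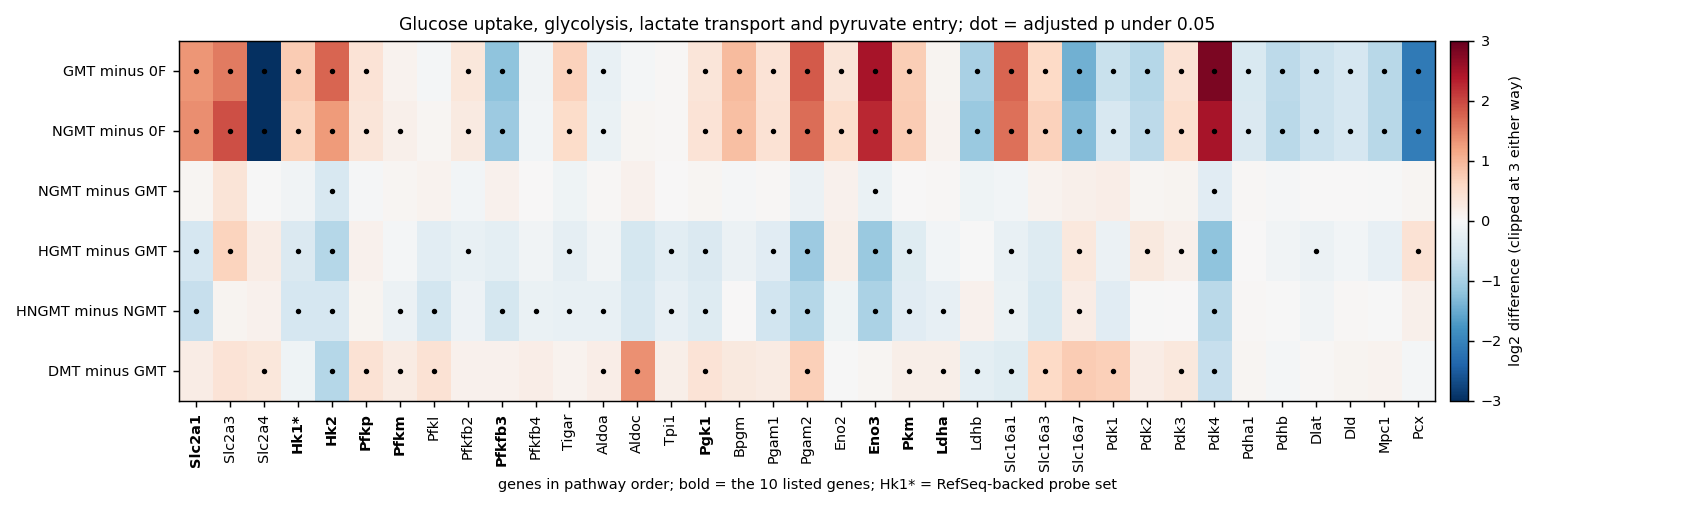
Log2 differences (colour, clipped at 3 either way) of glucose transport, glycolysis, lactate transport and pyruvate entry genes in pathway order (x axis) in 6 comparisons (rows), with a dot where the limma adjusted p was under 0.05; Hk1 is drawn from its RefSeq-backed probe set. Slc2a4 (-3.02, at or below the array median in GMT) and Pdk4 (2.81) are among the deepest colours of the GMT row. Hk2, Pgam2, Eno3 and Pdk4 are blue in both rows where Hand2 was added.

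The other 4 combinations share no array set with 0F, and their differences from 0F depend on how the sets are joined. With the set term DMNT is joined to 0F through DMT replicate 4 alone. Slc2a1 was higher and Pfkfb3 lower than in 0F in all 4, both in the fit with the set term and as a direct difference. Slc2a1 was 0.81 ± 0.11 in HGMT, 0.69 ± 0.11 in HNGMT, 1.55 ± 0.11 in DMT and 1.55 ± 0.17 in DMNT, and 0.55, 0.43, 1.28 and 1.36 as a direct difference. Pfkfb3 was -1.50 ± 0.19, -1.61 ± 0.19, -1.09 ± 0.19 and -0.90 ± 0.28 in the same order, and -2.22, -2.31, -1.73 and -1.36 as a direct difference. In DMT and DMNT, Pgk1, Eno3, Pkm and Ldha were also called higher in both.

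For the rest the answers parted. Eno3 in HGMT was 1.36 ± 0.07 above 0F with the set term and 0.02 as a direct difference, and Hk2 was 0.88 ± 0.14 and -0.09. The set term itself was -1.11 for Eno3 and -0.74 for Hk2 (set 2 minus set 1), beside a median of 0.15 over all genes tested, so both genes were lower in set 2 within the same combinations. With the set term 5 of the 10 genes were called higher and 2 lower in HGMT (51.1% of all genes called), 5 and 1 in HNGMT (49.7%), 8 and 1 in DMT (56.4%) and 8 and 1 in DMNT (41.4%). Called in the same direction by both were 1 higher and 1 lower in HGMT, 1 and 1 in HNGMT, 5 and 1 in DMT and 5 and 1 in DMNT, where the direct differences called 55%, 52.9%, 60.3% and 63.8% of all genes. Pfkp in HNGMT (0.45, adjusted p = 0.024) was not called without 0F replicate 3 (adjusted p = 0.053), HNGMT replicate 2 (adjusted p = 0.0766) or HNGMT replicate 3 (adjusted p = 0.0794). Ldha in HNGMT (-0.13, adjusted p = 0.0981) was called lower without HNGMT replicate 2 (adjusted p = 0.0414) or replicate 3 (adjusted p = 0.0429).

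Adding Hand2, a basic helix-loop-helix factor of the developing ventricles, went with lower signal for Slc2a1, Hk2, Pgk1, Eno3 and Pkm. In HGMT against GMT (3 and 5 arrays) 5 of the 10 genes were lower and 0 higher, where 26.7% of all genes were called and 14.5% were called lower. In HNGMT against NGMT (3 and 6 arrays) 8 were lower and 0 higher, where 31.7% were called and 22.9% called lower. Without GMT replicate 5 and HNGMT replicate 1, 7 and 8 genes were called, counting both directions. With only GMT replicate 5 left out, Pfkp was called higher in HGMT against GMT (0.30, limma adjusted p = 0.0172). With a term of 2 levels in place of the 3 sets, 5 were called in HNGMT against NGMT. With title numbers as a replicate block 3 were called in HNGMT against NGMT, and Hk2 and Pgk1 were not among them. The median of the 10 genes was -0.33 and -0.37, beside -0.01 and -0.04 over all genes. Slc2a1, Hk2, Pgk1, Eno3 and Pkm were lower in both, in the fit of all arrays, inside set 2 and as a direct difference. Inside set 2, 17% of all genes were called in HGMT against GMT and 8.89% called lower, and as direct differences 8.7% and 14.2% were called lower in the 2 comparisons.

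Slc2a1, Hk2, Pgk1 and Eno3 each have 1 annotated start site in the RefSeq table of build GRCm38.p6, and their promoter windows, from 250 bases before the start to 50 after it, are shown because these genes fell together when Hand2 was added. Each window is written 5′ to 3′ along the gene's strand, with the motif ACGTG, the core of hypoxia response elements, in capitals on either strand (CACGT is the same motif read on the other strand).
Slc2a1, chr4:119108495-119108794, strand plus: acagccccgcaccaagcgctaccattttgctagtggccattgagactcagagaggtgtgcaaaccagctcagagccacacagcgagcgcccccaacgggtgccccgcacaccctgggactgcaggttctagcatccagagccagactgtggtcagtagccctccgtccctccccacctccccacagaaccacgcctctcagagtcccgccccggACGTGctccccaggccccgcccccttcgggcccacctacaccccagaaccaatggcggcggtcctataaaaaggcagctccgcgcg
Hk2, chr6:82774405-82774704, strand minus: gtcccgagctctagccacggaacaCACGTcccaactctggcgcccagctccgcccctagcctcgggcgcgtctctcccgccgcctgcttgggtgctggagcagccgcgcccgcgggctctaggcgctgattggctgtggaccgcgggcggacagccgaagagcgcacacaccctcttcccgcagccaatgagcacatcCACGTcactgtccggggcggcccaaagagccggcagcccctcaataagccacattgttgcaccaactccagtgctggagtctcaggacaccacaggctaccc
Pgk1, chrX:106186850-106187149, strand plus: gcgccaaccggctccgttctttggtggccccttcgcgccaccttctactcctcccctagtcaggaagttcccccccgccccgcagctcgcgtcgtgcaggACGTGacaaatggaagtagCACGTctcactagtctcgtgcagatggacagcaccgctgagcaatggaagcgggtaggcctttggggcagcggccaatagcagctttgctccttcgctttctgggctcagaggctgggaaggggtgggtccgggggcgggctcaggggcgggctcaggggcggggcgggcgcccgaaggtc
Eno3, chr11:70656926-70657225, strand plus: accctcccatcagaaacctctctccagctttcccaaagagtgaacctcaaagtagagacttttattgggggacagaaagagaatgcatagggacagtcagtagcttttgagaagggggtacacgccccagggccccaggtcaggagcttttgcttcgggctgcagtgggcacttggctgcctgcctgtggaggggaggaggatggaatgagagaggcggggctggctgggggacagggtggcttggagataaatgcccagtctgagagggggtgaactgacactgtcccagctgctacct
The windows of Slc2a1, Hk2 and Pgk1 hold ACGTG and that of Eno3 does not. All 10 genes matched the table by symbol, with 17 windows in all, and 10 of the 17 windows, from 8 of the 10 genes, held ACGTG, against 19.6% of 32851 mouse promoter windows of the same length. Pfkm gave 4 of the 17 windows, some of them overlapping. The GC content of the windows shown was 65.3% (Slc2a1), 67.3% (Hk2), 66.7% (Pgk1) and 57.0% (Eno3), against a median of 52.7% over all windows. The longer palindrome CACGTG, which contains ACGTG, was found in 3 of the 17 windows, of Pfkm, Pfkfb3 and Ldha (7.2% of all windows). GATAA, the GATA core, was found in 6 of the 17 windows, from 4 genes (25.4% of all). The T-box letters AGGTGTG were found in 1 window, that of Slc2a1 (5.8%). The MEF2 motif was in none (0.6%) and the CArG box, bound by the partner of myocardin, in Ldha alone (1.6%). These matches describe the letters of the windows only.

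Eno3 showed the clearest separation. In set 2 its level was 8.98, 8.86 and 8.99 in GMT and 7.84, 7.89 and 7.77 in HGMT. It was 8.75, 8.67 and 8.77 in NGMT and 7.76, 7.82 and 7.81 in HNGMT. Every array with Hand2 lay below every array without it. The difference was -1.10 ± 0.06 in HGMT, a 2.15-fold lower signal (adjusted p = 2.23e-13), and -0.94 ± 0.06 in HNGMT (adjusted p = 6.91e-12).

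Slc2a1 was read at 11.09, 11.08 and 11.29 in GMT against 10.63, 10.54 and 10.56 in HGMT. It was read at 11.06, 11.09 and 11.11 in NGMT against 10.24, 10.45 and 10.70 in HNGMT. Neither comparison overlapped. The differences were -0.51 ± 0.08 (adjusted p = 5.57e-05) and -0.69 ± 0.08 (adjusted p = 1.3e-06).

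Hk2 was read at 8.97, 8.81 and 9.12 in GMT against 8.15, 8.23 and 8.03 in HGMT. It was read at 8.53, 8.48 and 8.67 in NGMT against 7.64, 8.10 and 8.30 in HNGMT. The HNGMT arrays spread more widely than the others, with replicate 1 lowest. The differences were -0.86 ± 0.11 (adjusted p = 1.26e-06) and -0.52 ± 0.11 (adjusted p = 0.000846).

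Pkm fell by 0.37 ± 0.04 in HGMT against GMT and by 0.33 ± 0.04 in HNGMT against NGMT. Pgk1 was read at 11.79, 11.85 and 12.14 in GMT and at 11.50, 11.35 and 11.49 in HGMT, a difference of -0.44 ± 0.08. Hk1 from its RefSeq-backed probe set was lower in both (-0.43 ± 0.07 and -0.50 ± 0.07), while its probe set of highest mean was not called in either (-0.09 and -0.02).

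Where NKX2.5 was present, Ldha (-0.24 ± 0.05), Pfkfb3 (-0.53 ± 0.14) and Pfkm (-0.17 ± 0.05) were lower too. Inside set 2 alone, 6 of the 10 genes were called lower in HNGMT against NGMT (17.6% of all genes called, 12.7% lower), without Pfkfb3 (adjusted p = 0.0993) and Pfkm (adjusted p = 0.127). Pfkm rested on HNGMT replicate 1, without which it was -0.10 (adjusted p = 0.137). Pfkp was not called lower in either comparison, and without GMT replicate 5 it was called higher in HGMT than in GMT (0.30, adjusted p = 0.0172). In the same comparison Hk1 from the probe set of highest mean was called lower without NGMT replicate 4 (-0.11, adjusted p = 0.0292). The test of whether adding Hand2 had another effect with NKX2.5 than without it called none of the 10 genes and 0% of all genes in limma. An unadjusted p under 0.05 was reached by 3 genes, Eno3 (0.16 ± 0.07), Hk2 (0.35 ± 0.14) and Ldha (-0.16 ± 0.06), whose adjusted p were 0.288, 0.246 and 0.24.

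Other steps moved with these. Of the 22 other glycolysis genes 7 were lower and 2 higher in HGMT against GMT, and 9 lower and 1 higher in HNGMT against NGMT. Pgam2 fell by 1.10 ± 0.09 and Pgam1, the common phosphoglycerate mutase, by 0.35 ± 0.10 in HGMT, whereas Slc2a3 was higher (0.67 ± 0.15; 0.09 and not called as a direct difference). The kinase gene Pdk4 fell by 1.21 ± 0.08, and the glycogen-targeting phosphatase subunit Ppp1r3c fell by 1.42 ± 0.09. In the hypoxia list 5 were lower and 5 higher, and 4 and 1 as a direct difference, among them Egln3 (-1.25 ± 0.30, at or below the array median in HGMT) and the vessel growth factor Vegfa (-0.70 ± 0.14) lower. Adipocyte markers were higher in HGMT than in GMT, 12 of 12 tested with a median of 0.86, at a mean level of 8.83 to 9.14 against 7.85 to 8.21 in set 2, with Lep at or below the array median in both groups. In HNGMT against NGMT 9 of 12 adipocyte and 6 of 10 macrophage markers were higher, with medians of 0.45 and 0.50. Inside set 2 alone 4 of 12 and 4 of 10 were called higher. Of 13 macrophage markers 9 lay at or below the array median on all HNGMT arrays, and 10 on all NGMT arrays of set 2. The part of the adipocyte and macrophage markers in the glycolysis differences was not tested. Cardiomyocyte markers, 5 lower and 2 higher of 17, had a mean level of 7.59 to 7.64 in HGMT and 7.91 to 7.99 in GMT of set 2.

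Putting MYOCD in place of GATA4 gave slightly higher signal at several middle and late steps and lower Hk2. In DMT against GMT (4 and 5 arrays) 5 of the 10 genes were higher and 1 lower, where 18.6% of all genes were called. DMT replicate 4, the only array of its group in set 3, carries no weight in this fit. Inside set 2 (3 arrays each) 2 were higher and 1 lower (12.9% of all genes called), and as a direct difference 1 was higher, Pgk1, and 1 lower, Hk2 (13.2%).

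Hk2 was read at 8.08, 8.17 and 8.15 in DMT, below all 3 GMT arrays of set 2, and fell by 0.87 ± 0.11 (adjusted p = 1.14e-06). Pgk1 was read at 12.16, 12.37 and 12.37 in DMT, above all GMT arrays of set 2, and was higher by 0.42 ± 0.08 (1.33-fold; adjusted p = 0.000305). Pfkm was read at 9.49, 9.51 and 9.53 in DMT against 9.20, 9.25 and 9.36 in GMT, a difference of 0.25 ± 0.05 that was also called inside set 2 (adjusted p = 0.0301). Pgk1, Pfkm and Hk2 thus kept their calls inside set 2. The DMT and GMT arrays of that set did not overlap in any of the 3. They did not overlap in Pkm either, which was not called there, so such a separation was not particular to called genes.

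Pfkp (0.44 ± 0.12), Pkm (0.18 ± 0.04) and Ldha (0.17 ± 0.05) were called higher in the fit of all arrays but not inside set 2 (adjusted p = 0.132, 0.0766 and 0.157) or as a direct difference. Pfkp was not called without DMT replicate 2 (adjusted p = 0.0717) or GMT replicate 4 (adjusted p = 0.0526), nor Ldha without DMT replicate 3 (adjusted p = 0.05). Slc2a1 (0.23 ± 0.08, adjusted p = 0.0591) and Pfkfb3 (0.12 ± 0.14, adjusted p = 0.703) were not called, but were called higher without GMT replicate 5 (0.30, adjusted p = 0.00966, and 0.34, adjusted p = 0.00843). Slc2a1 was also called without 0F replicate 2 (adjusted p = 0.0477), HNGMT replicate 1 (adjusted p = 0.0203) or HNGMT replicate 3 (adjusted p = 0.0241). Eno3 was at the same level in both within narrow limits (0.05 ± 0.06, 95% interval -0.06 to 0.17).

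Of the other glycolysis genes 7 were higher and 2 lower in DMT against GMT, and 3 and 2 as a direct difference. Aldoc, a brain-type aldolase, was higher by 1.38 ± 0.24, also inside set 2 (1.21) but not as a direct difference (0.69, adjusted p = 0.284). Pgam2 was higher by 0.71 ± 0.09. Of 22 hypoxia-response genes 9 were higher and 2 lower with a median of 0.27, but 3 and 2 with a median of 0.05 as a direct difference, with Egln3 at 2.38 ± 0.30 and the carbonic anhydrase Car9 at 1.61 ± 0.53, of which Car9 was not called inside set 2 (adjusted p = 0.276) and neither was called as a direct difference. Smooth muscle markers (7 of 8 higher, median 2.01, mean level 10.34 to 10.53 in DMT and 8.23 to 8.27 in GMT of set 2) and skeletal muscle markers (6 of 8 higher, median 1.30; mean level 6.72 to 6.79 and 5.98 to 6.12) moved with these results, while Myod1, Myog and Pax7 lay at or below the array median in both groups of set 2. Adipocyte markers were lower in DMT, 7 of 12 tested with a median of -0.52, and 2 of 12 with a median of -0.20 as a direct difference. Their part was not tested.

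**Figure D4:**
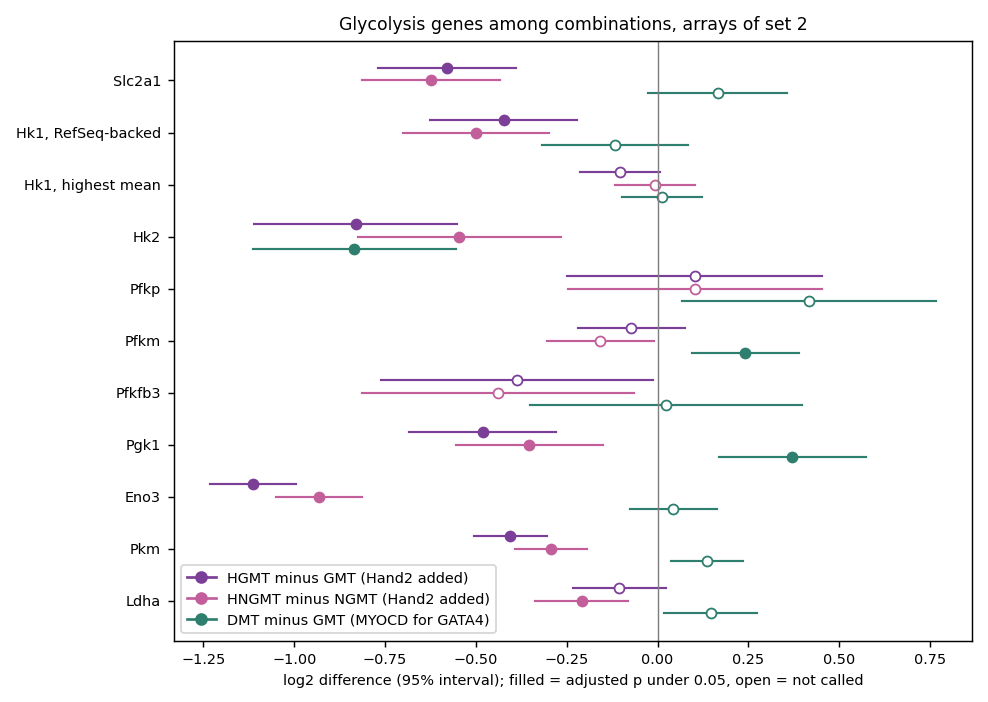
Log2 differences with 95% intervals (x axis) for each gene (y axis) among combinations, fitted on the 15 arrays of set 2 alone with 3 arrays per group, with filled points where the limma adjusted p was under 0.05. Eno3 lies at -1.11 and -0.93 where Hand2 was added and at 0.04 where MYOCD replaced GATA4, whereas Hk2 lies left of 0 in all 3 comparisons (-0.83, -0.55 and -0.83).

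Adding NKX2.5, a homeobox factor of the early heart, was measured in both array sets and moved few of these genes. In NGMT against GMT (6 and 5 arrays) Hk2 differed by -0.47 ± 0.09 on the log2 scale (adjusted p = 0.00425) and Eno3 by -0.20 ± 0.04 (adjusted p = 0.0231), where 1.63% of all genes were called and 0.942% called lower. As a direct difference neither was called, with Hk2 at -0.38 and Eno3 at -0.075 (adjusted p = 1 for both). Hk2 was lower in NGMT than in GMT in both sets, with a difference of -0.55 in set 1 (adjusted p = 0.00727) and -0.41 in set 2, where it was not called (adjusted p = 1) where 0.00819% of all genes, 1 gene, were called against 5.52% in set 1. Neither set showed overlap between the Hk2 levels of the 2 groups.

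The Eno3 call was lost without any of GMT replicate 2 (adjusted p = 0.208), GMT replicate 5 (adjusted p = 0.0504), NGMT replicate 1 (adjusted p = 0.0536), NGMT replicate 2 (adjusted p = 0.0536) or NGMT replicate 5 (adjusted p = 0.0629), and inside either set alone. Pfkfb3 was called higher in set 1 (0.37, adjusted p = 0.0168) and without GMT replicate 5 (0.29, adjusted p = 0.0378), but not over all arrays (0.13 ± 0.11). That array read Pfkfb3 at 8.17 against 7.30 and 7.42 on the other GMT arrays of set 2. The test of whether NGMT against GMT differed between the sets called none of the 10 genes in limma (0.139% of all genes). Pkm and Slc2a1 reached an unadjusted p under 0.05, with adjusted p of 0.208 and 0.279.

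With Hand2 present, NKX2.5 gave no call among the 10 genes in HNGMT against HGMT (3 arrays each), where 0.622% of all genes were called. At an unadjusted p under 0.05 were Hk1 (0.11) and Ldha (-0.13), with limma adjusted p of 0.138 and 0.126. Ldha was called lower without HNGMT replicate 2 (adjusted p = 0.0367) or HNGMT replicate 3 (adjusted p = 0.0335), and Hk1 higher without HNGMT replicate 3 (adjusted p = 0.0269), so that 1 and 2 genes were called without these arrays.

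With MYOCD, NKX2.5 gave no call either. DMNT against DMT rests on 4 DMNT arrays and 1 DMT array of set 3, and the lone DMT array is assumed to vary like the arrays of the other groups. Between arrays of set 3, 20.7% to 38.4% of genes differed by at most 0.005 log2, against 1.29% to 8.19% in the other sets. The root mean square difference between DMNT arrays was 0.06 to 0.12, with a median of 0.08. Between replicates of one group it was 0.11 to 0.16 in set 1, with a median of 0.13. DMT replicate 4 differed from the DMNT arrays by 0.10 to 0.15. In this comparison 0.0737% of all genes were called, none of the 10 was at an unadjusted p under 0.05, and the 95% interval was narrowest for Hk1 (-0.11 to 0.14) and widest for Pfkfb3 (-0.24 to 0.63). The test of whether adding NKX2.5 had another effect with MYOCD than with GATA4 called none of the 10 genes in limma (0.00819% of all genes). Hk2 alone reached an unadjusted p under 0.05 (0.47 ± 0.18, adjusted p = 1). In DMNT against NGMT, which is joined to the other sets through that DMT array alone, no gene of the 10 was called (6.27% of all genes). At an unadjusted p under 0.05 were Hk2 (-0.40), Ldha (0.20), Pfkm (0.21), Pfkp (0.49) and Pgk1 (0.39), with limma adjusted p of 0.108 to 0.322. Without GMT replicate 5 Pfkp (0.54, adjusted p = 0.0249) and Pgk1 (0.42, adjusted p = 0.0213) were called higher, 2 genes in all, and without DMT replicate 1 Pgk1 alone (0.46, adjusted p = 0.0464).

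Ordered inside set 2, where 5 combinations share a scale, Slc2a1 ran from DMT through GMT and NGMT down to HGMT and HNGMT. Only the step from NGMT to HGMT was called between neighbours (a gap of 0.51). Eno3 had the same order, with a gap of 0.90 called between NGMT and HGMT and the other neighbours not called. Hk2 ran from GMT through NGMT, HGMT and DMT to HNGMT, with the step from NGMT to HGMT called (0.42, adjusted p = 0.0405). Pgk1 ran from DMT, called above GMT by 0.37, through NGMT, called above HNGMT by 0.35, to HGMT. Pkm ran from DMT through GMT to NGMT, called above HNGMT by 0.29, and then to HGMT. For Pfkp, Pfkfb3, Pfkm, Ldha and Hk1 from its probe set of highest mean no step between neighbours was called. For Hk1 from its RefSeq-backed probe set the step from DMT to HGMT was called (0.31).

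Of the 10 genes 4 spanned at least 1 on the log2 scale across the 7 group means after adjustment for the set. The genes nearest to each in those 7 means, by root mean square difference after centring, were Dusp1 (0.07), Avpi1 (0.08) and Rcan1 (0.09) for Slc2a1, and Popdc3 (0.07), Fgf23 (0.11) and Slc12a7 (0.12) for Hk2. For Pfkfb3 they were Plod1 (0.06), Gbe1 (0.10) and Tmem119 (0.11), and for Eno3 Jam2 (0.08), Tpd52 (0.13) and Gldn (0.15). The 7 means rest on the same 28 arrays, and the distance is a description without a test.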

How the data were processed

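Total RNA of 28 samples was hybridised to single-channel mouse arrays. The deposited values are log2 signals of 35556 probe sets (3.757941 to 14.46866), and MAS5 is the one tool in the submitters' processing notes, without a version; how the log2 values were scaled is not given. Signal over background and the number of arrays limit the precision. Probe sets with 1 symbol (21789; 1621 had several and 12146 none) gave 19938 genes, each read from the probe set of highest mean, and 12211 genes above the array median on at least 3 arrays were tested.

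Array sets, which the labels do not name, were found from distances between sorted values (at most 0.0486 inside a set and at least 0.1354 between sets). R 4.3.3 and limma 3.58.1 (lmFit, eBayes with trend) fitted group and set, with Benjamini-Hochberg adjustment over all genes tested and calls at 0.05. Fits inside each set, and a direct difference (quantile normalization of all arrays, no set term), were made beside it. The fit was tested on simulated data. Members and gene lists were chosen with earlier results of these arrays known. Named genes outside the 10 were up to 4 called genes of largest change per list and comparison. Whether same title numbers pair the samples cannot be settled from correlations of deviations inside such small groups. A replicate block was not part of the main fit. The label for source calls all cells selected; titles were followed for 0F. Promoters came from RefSeq (GRCm38.p6).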

Additional observations from a re-analysis of the deposited data

Results flagged for a closer look

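In groups of 4 to 10 arrays, 8 of 33 sets of set-adjusted log2 signals had an extreme array by Dixon's criterion. For 1 set without ties chance gives about 1 in 20. The 33 sets share arrays and hold Hk1 from both probe sets, so that rate does not apply to their count. GMT replicate 5 was highest of 5 for Pfkfb3 (8.72, next 7.98), Ldha (12.78, next 12.58) and Pgk1 (12.04, next 11.78). NGMT replicate 5 was lowest of 6 for Eno3 (9.78, next 9.85), and NGMT replicate 2 was highest of 6 for Pfkp (9.26, next 9.14). In DMNT replicate 1 was highest for Pfkp (9.70, next 9.61), and replicate 3 was highest for Hk1 from its probe set of highest mean (12.28, next 12.27) and from its RefSeq-backed probe set (9.72, next 9.71). In each of these DMNT sets all other arrays were tied at the same value, so the criterion cannot judge them. DMT was not examined this way, since the fit fixes the adjusted value of replicate 4.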

How the results depend on the processing

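Leaving out the low-signal filter, a stricter filter (14 arrays) and limma with robust variances and no trend, as 1 setting, kept the direction and call of every value of the 10 genes. Quantile normalization with the set term ended 1 call, Ldha in DMT against GMT (0.17, adjusted p = 0.052). Hk1 against 0F changed sign with its RefSeq-backed probe set (0.76 in GMT, 0.67 in NGMT, 0.33 in HGMT, 0.64 in DMT and 0.64 in DMNT) and with the mean of its probe sets (0.34, 0.31, 0.076, 0.29 and 0.30). As a direct difference from 0F these changed sign: in NGMT Pfkm (-0.077); in HGMT Hk1 (0.16), Hk2 (-0.094), Pfkp (-0.048), Pfkm (-0.37) and Pkm (-0.12); in HNGMT Hk1 (0.22), Hk2 (-0.19), Pfkp (-0.10) and Pkm (-0.091); in DMT Hk1 (0.20), Hk2 (-0.17) and Pfkm (-0.047); in DMNT Hk2 (-0.47). A term of 2 levels, taken from the description labels, puts sets 2 and 3 on the same level. The median set term over all genes tested was 0.15 for set 2 and 0.69 for set 3, each minus set 1. With this term DMNT against DMT spans sets 2 and 3 without adjustment. It reversed Hk1 in DMNT against 0F (0.29), Slc2a1 (0.41), Eno3 (0.57) and Pkm (0.63) in DMNT against DMT, and Slc2a1 (0.34), Hk1 (0.24), Pfkm (0.37), Pgk1 (0.24) and Pkm (0.61) in the difference of NKX2.5 effects. The cause was not tested.

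Counts of genes called that moved by over 1.5 times were, as a direct difference, 2 in DMNT against NGMT, 2 in DMT against GMT, 3 in HGMT against 0F and 0 in NGMT against GMT. With the term of 2 levels they were 9 in DMNT against DMT, 9 in DMNT against NGMT, 5 in HNGMT against NGMT and 1 in NGMT against GMT. Without GMT replicate 5 and HNGMT replicate 1, a choice made after seeing the data, DMNT against NGMT gave 4. Set 2 alone, with fewer arrays, gave 3 in DMT against GMT and 0 in NGMT against GMT, and sets 1 and 2 gave 1 in NGMT against GMT. With title numbers as a replicate block, HNGMT against NGMT gave 3, without Hk2 (adjusted p = 0.121), Pgk1 (0.0772), Ldha (0.0589), Pfkfb3 (0.13) and Pfkm (0.225), and NGMT against GMT gave 1; same-numbered arrays correlated from -0.14 to 0.41 in set 1 and -0.26 to 0.30 in set 2. Leaving out 1 array at a time gave 1 to 2 genes in NGMT against GMT, 0 to 2 in HNGMT against HGMT and 0 to 2 in DMNT against NGMT. DMNT comparisons could not be fitted without DMT replicate 4.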
